A study of Chenopodium quinoa with 24 samples.

Results

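J-domain proteins, also called DnaJ or HSP40 proteins after the bacterial chaperone in which the domain was found, are partners of the HSP70 chaperones. The J domain stimulates HSP70 to split ATP, so that HSP70 closes on a client protein, and the remainder of the J-domain protein often brings that client. Type A members carry a cysteine-rich zinc-binding region beside the J domain, type B members lack it, and the many other members share little beyond the J domain itself. Plants hold them in the cytosol, the plastid, the mitochondrion and the endoplasmic reticulum, and in many species some of them accumulate when leaves become hot.

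The members described here are the transcripts of quinoa whose gene name text contains "dnaJ". They numbered 143, of which 6 were left out because their best Arabidopsis match is 1 of 3 loci for J-domain proteins of the endoplasmic reticulum lumen (ERDJ3A, ERDJ3B and P58IPK). The remaining 137 members are 0.306% of the 44776 transcripts in the table and match 58 Arabidopsis loci. Quinoa is an allotetraploid, and 41 loci had 2 members, 13 loci had at least 3, and 4 loci had a single member. The plastid DJA6 and the cytosolic J2 had the most, with 6 members each. For 5 members the name text refers to a DnaJ-type cysteine-rich domain or to a domain of unknown function and not to a J domain.

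Leaves of the quinoa accession QQ74 were collected on days 1 and 11 of a heat treatment that began at first anthesis, from 3 plants in each of 8 groups. Leaves were taken 2 hours after the start of the light period, and plants had been assigned to the treatments at the start of a light period, so that leaves of day 1 had been heated either for hours or for about a day, which the sources used here do not settle. In plants with both parts heated (HRS) the roots were kept at 30°C and the shoots at 35°C, in plants with heated shoots (HS) the roots stayed at 22°C below shoots kept at 35°C, and in plants with heated roots (HR) the roots were warmed to 30°C below shoots that stayed at 22°C. Control plants were kept at 22°C throughout. HRS and HS plants stood in a different growth chamber from HR and control plants, and each treatment had its own box, so that chamber and box cannot be told apart from the treatment.

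For each treatment and day the values used are those of 1 fit of 3 treated against 3 control plants. The effect b is the difference of the group means of normalized estimated counts after taking natural logs, so that a b of 0.69 is a doubling in the heated plants. A transcript was called when the Wald test of sleuth, recomputed from b and its standard error, gave a Benjamini-Hochberg adjusted p under 0.05 over all transcripts of that comparison. Levels are the geometric means of normalized estimated counts of the 3 plants, which are not divided by transcript length and are therefore compared only between groups for 1 transcript. Values of single plants were not analysed here. Because whole leaves were measured, fewer cells of a type and less RNA per cell cannot be told apart. In their place, the groups of a transcript are said not to overlap where the residual spread of the fit is too small for any of the 3 treated plants to reach any of the 3 control plants.

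Of the members, 127 were tested in all 6 comparisons, 3 in some of them and 7 in none, where sleuth gave no effect. All 13 transcripts matching the leaf markers RBCS1A, LHCB2.1 and RCA were tested and abundant, with control levels between 852 and 343459. At most 3 of 9 transcripts for flower markers and 2 of 5 for root markers were tested.

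On day 1 of heating the shoots, a large part of the J-domain transcripts was higher than in control, with or without heated roots. In HRS on day 1, 36 of 128 members tested were called higher than in control and 10 lower, where 26.6% of all transcripts tested were called in either direction, 14.1% higher and 12.5% lower. In HS on day 1, 39 of 128 were called higher and 12 lower, against 26.3% of all transcripts called, 14.1% higher and 12.3% lower. The share of members called was thus 35.9% in HRS and 39.8% in HS, and the share called higher was 28.1% and 30.5%. The groups did not overlap for 51 members in HRS and 57 in HS, where that share among all transcripts was 30.8% and 30.7%. Limma, a moderated test that used the same b and the residual variances, called 34 higher and 8 lower in HRS and 36 higher and 10 lower in HS, where it called 22.7% and 22.1% of all transcripts. Scaled to the summed level of all transcripts instead of sleuth's scaling, b falls by 0.13 in HRS and 0.18 in HS for every transcript, and the calls became 31 higher and 18 lower in HRS and 27 higher and 25 lower in HS. Of all transcripts 9.57% were then called higher and 21.7% lower in HRS, and 8.63% higher and 24.9% lower in HS.

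**Figure D1:**
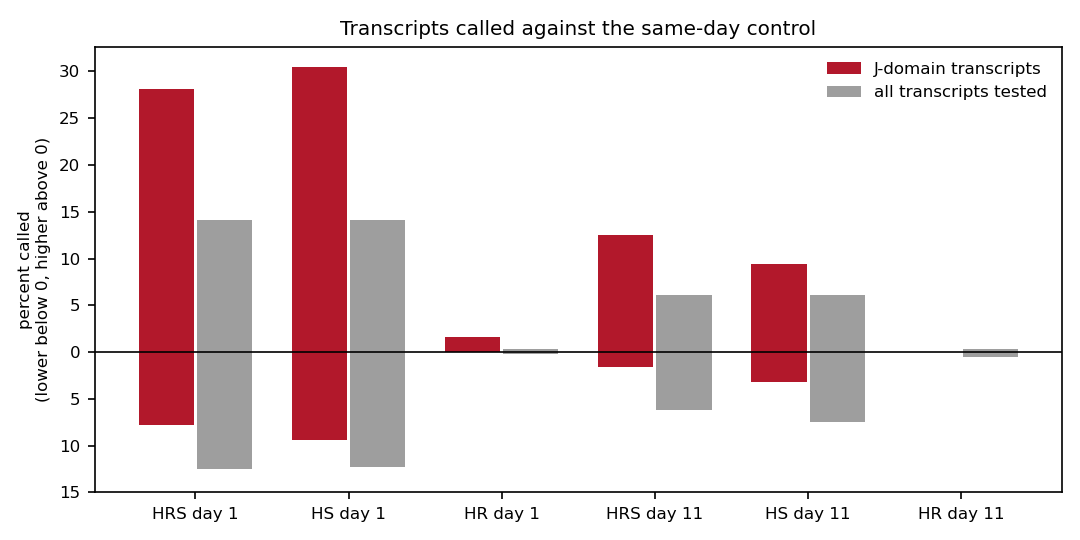
Percent of transcripts called higher (above 0) and lower (below 0) than in the same-day control, for the J-domain transcripts (red) and all transcripts tested (grey), in the 6 comparisons. The red bars for higher transcripts reach 28.1% and 30.5% in HRS and HS on day 1, and those for lower transcripts stay shorter than the grey ones.

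Of these members, 39 were called in both HRS and HS on day 1, 31 of them higher in both and 8 lower in both, where 11.1% of all transcripts were called higher in both and 8.69% lower in both. Both treatments were set against the same 3 control plants. The median b over all members tested was 0.19 in HRS and 0.16 in HS, where the median over all transcripts was within 0.01 of 0. In total, 66 members were called in at least 1 of the 4 comparisons with heated shoots, 38 of them on day 1 only, 20 on both days and 8 on day 11 only, and 64 of the 130 members tested anywhere were called in none of the 6 comparisons. The same counts were not taken over all transcripts, so that these totals show nothing particular to the members.

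Grouped by their role, most organelle type A and small plastid members rose on day 1 in HRS and HS, with 9 of 13 and 6 of 9 called in HRS and 8 of 13 and 7 of 9 in HS, all higher. The cytosolic type A members were divided between higher and lower transcripts. Of the type B members 1 of 4 was called in HRS and none in HS, and of the ARG1 and Sec63 members none was called in HRS, and 1 of 4 and 1 of 2 in HS.

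**Figure D2:**
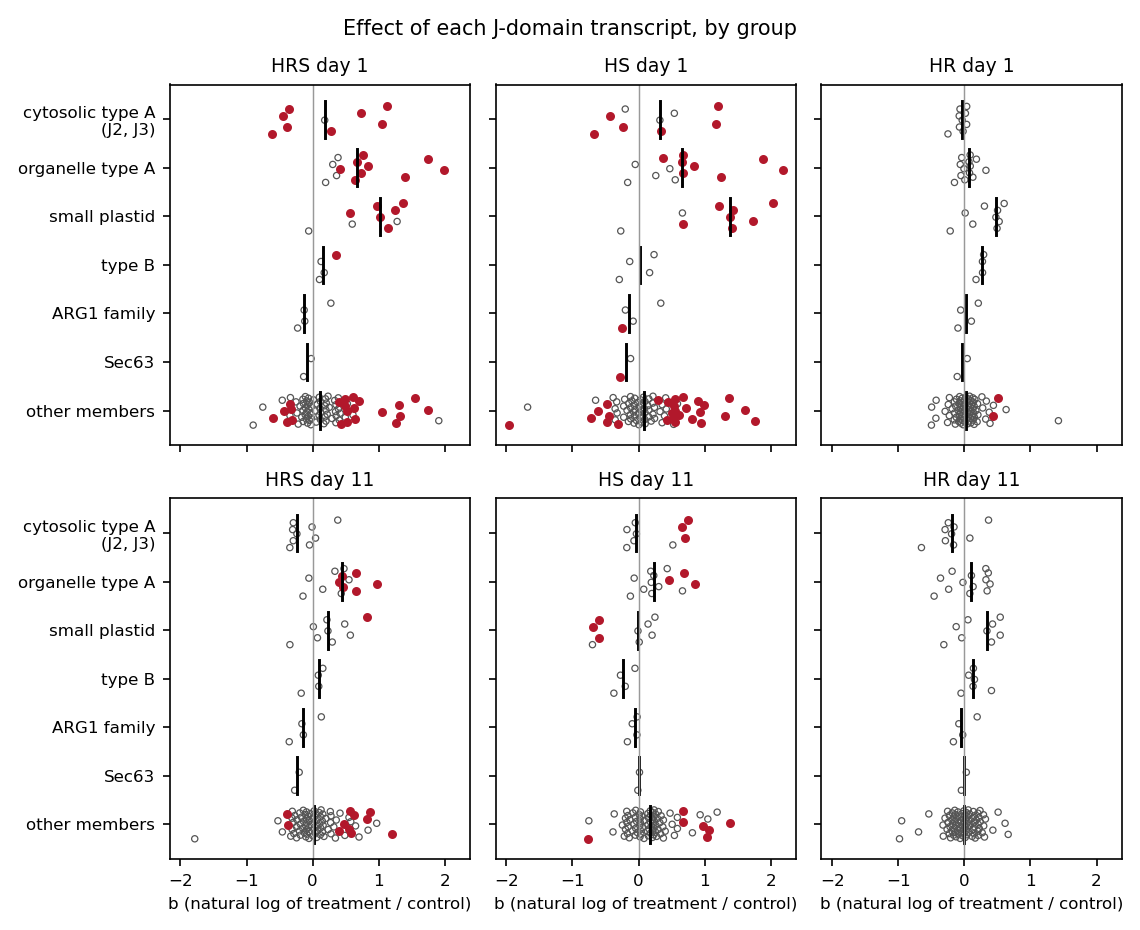
Effect b on the natural log scale (horizontal axis) of each J-domain transcript, by group of members, in the 6 comparisons with the same-day control; filled red points were called, open points were not, and black bars are the medians of the group. On day 1 in HRS and HS the organelle type A members have medians of 0.67 and 0.66 and the small plastid members 1.01 and 1.39, while in HR all medians lie between -0.19 and 0.48.

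J2 and J3 are the cytosolic type A proteins of Arabidopsis, farnesylated co-chaperones of cytosolic HSP70, and J3 also acts in flowering time control. In quinoa they had 6 and 3 members, all tested in every comparison. In HRS on day 1, 4 of the 9 were called higher and 4 lower, and in HS 3 were called higher and 3 lower, whereas in HR none was called. Members of 1 locus therefore went opposite ways in the same leaves.

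Among the J2 members, AUR62001569-RA had a level of 10341 in HRS plants on day 1 against 3359 in control plants, a 3.08-fold difference (b 1.12 ± 0.09 SE, Wald test of sleuth with Benjamini-Hochberg adjustment, adjusted p = 1.7e-32). In HS plants its level was 11379 against 3521 in control plants (b 1.17 ± 0.22). A second J2 member, AUR62020215-RA, rose by a like amount, to 7595 in HRS plants against 2665 in control plants and to 9301 in HS plants against 2793 in control plants. Heated and control plants did not overlap for either transcript in either treatment, although the plants of the HS fit spread more widely (SD within groups 0.28 and 0.46 on the natural log scale) than those of the HRS fit (0.09 and 0.20). AUR62021955-RA, with few estimated counts, was called in HRS (b 0.72 ± 0.29, levels 58.9 in HRS and 28.3 in control plants) and lost the call with total scaling.

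The other 3 J2 members had a b below 0. The level of AUR62034163-RA was 1575 in HRS plants against 2478 in control plants (b -0.45 ± 0.08), and 2063 in HS plants against 2597 in control plants (b -0.23 ± 0.09, not called by limma). AUR62013716-RA was called lower in both treatments, with b of -0.39 ± 0.11 in HRS and -0.43 ± 0.15 in HS. AUR62014275-RA was called lower in HRS only (b -0.35 ± 0.12), and its b in HS was -0.20 ± 0.15. The J2 transcripts that fell did not rest on few reads, since control plants of the HRS fit held 2478, 647 and 2522 normalized estimated counts of them.

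J3 showed the same division. AUR62004125-RA fell in both treatments, to 589 in HRS plants against 1091 in control plants and to 580.1 in HS plants against 1144 in control plants, with b of -0.62 ± 0.09 and -0.68 ± 0.09, and no plant of one group reached the other. AUR62044239-RA was called higher, with levels of 363 in HRS plants against 275 in control plants and 405 in HS plants against 288 in control plants. With total scaling its b kept its sign but was no longer called in either treatment. AUR62043260-RA was not called in any comparison, and its b was 0.18 in HRS and 0.32 in HS.

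On day 11 the 3 J2 and J3 transcripts that had risen in both treatments on day 1 were called higher in HS and not in HRS. AUR62001569-RA had a level of 4506 in HS plants against 2132 in control plants (b 0.75 ± 0.16), and 1807 in HRS plants against 1825 in control plants (b -0.01 ± 0.13). For AUR62020215-RA the b was 0.66 ± 0.15 in HS and -0.05 ± 0.13 in HRS, and for the J3 member AUR62044239-RA it was 0.71 ± 0.15 in HS and 0.04 ± 0.16 in HRS. The members that had been lower on day 1 were not called on day 11 in either treatment.

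**Figure D3:**
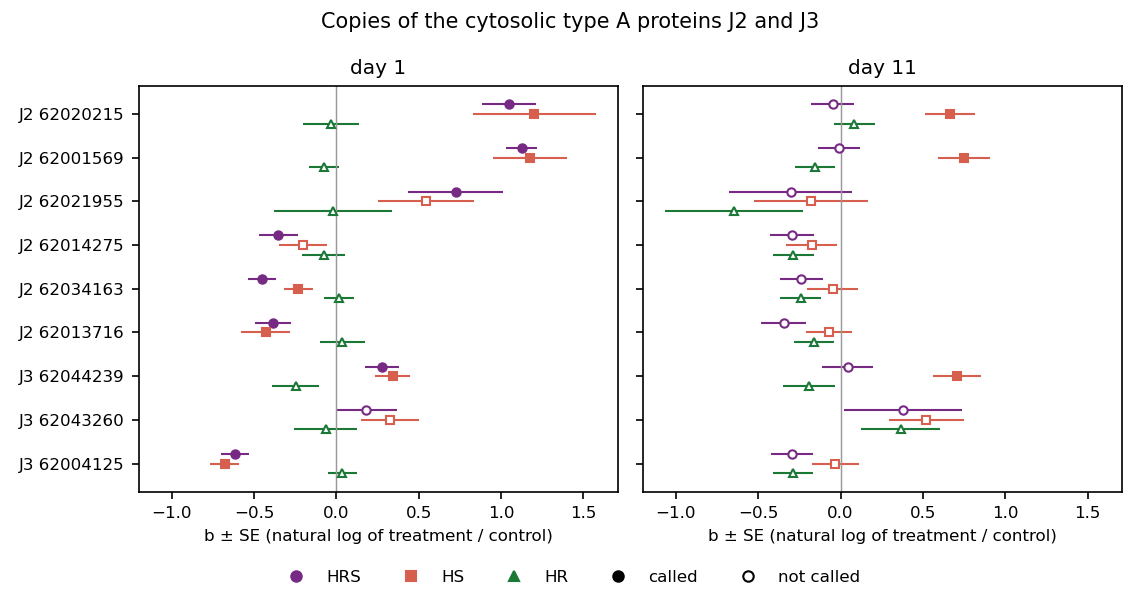
Effect b with its standard error (horizontal axis, natural log scale) for the 6 members of J2 and the 3 of J3, on day 1 (left) and day 11 (right), in HRS (circles), HS (squares) and HR (triangles) against control; filled symbols were called, and the numbers are those of the transcript identifiers. On day 1 the upper J2 rows lie near 1.1 and the lower ones between -0.45 and -0.20, and on day 11 the squares of 3 rows lie near 0.7 while the circles of the same rows lie near 0.

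Type A proteins of the plastid and mitochondrion had 13 members, from DJA6, DJA7, GFA2 and J1. In HRS on day 1, 9 of them were called higher and none lower, and in HS 8 were called higher and none lower, with the same counts by limma. The median b of the 13 was 0.67 in HRS and 0.66 in HS. In HR none was called and the median was 0.07. With total scaling 9 were called in HRS and 6 in HS on day 1, all higher.

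DJA6 is a plastid protein that in Arabidopsis takes part in the assembly of iron-sulfur clusters. Its member AUR62014865-RA showed the highest b of all members called on day 1, with 2701 in HRS plants against 368 in control plants (7.32-fold, b 1.99 ± 0.12, adjusted p = 5.3e-61 by the Wald test of sleuth and 1.2e-05 by limma). In HS plants it reached 3416 against 386 in control plants (8.84-fold, b 2.18 ± 0.24). AUR62031070-RA rose to 3638 in HRS plants against 636 in control plants (5.72-fold) and to 4355 in HS plants against 667 in control plants (6.53-fold). Heated and control plants did not overlap for either of them. Among the other members of DJA6, AUR62013865-RA was called in both treatments with b of 0.42 and 0.37, and the remaining 3 were not called on day 1. One of these, AUR62013147-RA, was called on day 11 instead, with 207 in HRS plants against 77.9 in control plants (b 0.97 ± 0.24) and 183 in HS plants against 91.1 in control plants (b 0.69 ± 0.21, limma adjusted p = 0.074).

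On day 11 both were called higher again in HRS, and the first also in HS. AUR62014865-RA was at 1094 in HRS plants against 565 in control plants (b 0.66 ± 0.13) and 1050.1 in HS plants against 659.9 in control plants (b 0.46 ± 0.14, limma adjusted p = 0.058). It was thereby among the 3 members called with 1 sign in all 4 comparisons with heated shoots, all of them higher, where 0.562% of all transcripts tested in the 4 were called higher in each. AUR62031070-RA was called on day 11 in HRS (b 0.66 ± 0.13) and had a b of 0.19 ± 0.17 in HS.

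DJA7, another type A protein, had a pair of members that behaved alike. AUR62011510-RA and AUR62016329-RA rose with b of 0.74 ± 0.09 and 0.67 ± 0.10 in HRS on day 1 and of 0.68 ± 0.10 and 0.66 ± 0.10 in HS. On day 11 both were called in HRS by the Wald test, with b of 0.45 and 0.46, and their b in HS was -0.07 and -0.12.

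GFA2, a mitochondrial protein first known from its part in the development of the female gametophyte, had 3 members, and all rose on day 1. AUR62033187-RA had 1136 in HRS plants against 282 in control plants (4.02-fold, b 1.39 ± 0.12) and 1027 in HS plants against 295 in control plants (3.47-fold, b 1.24 ± 0.13). AUR62043122-RA and AUR62043121-RA, whose identifiers follow each other, had b of 0.84 and 0.76 in HRS and 0.85 and 0.68 in HS. On day 11 only AUR62033187-RA was called, in HS (b 0.86 ± 0.22), and its b in HRS was 0.55 ± 0.23. Of the mitochondrial J1, AUR62027838-RA was called in HRS on day 1 (b 0.64 ± 0.18) and AUR62018996-RA was not called.

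The small plastid members, which hold little more than a J domain behind a transit peptide, showed the highest group median. The list had 9 members tested, of which 6 were called higher in HRS on day 1 and 7 in HS, none lower, with medians of 1.01 and 1.39. The 7 include J8, J11 and J20, whose loss in Arabidopsis lowers photosynthetic carbon fixation, and DJC73.

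J20 passes inactive deoxyxylulose phosphate synthase, the first enzyme of the plastid isoprenoid pathway, to HSP70. Its members rose together. AUR62020857-RA had 2386 in HRS plants against 867 in control plants (b 1.01 ± 0.19) and 3636 in HS plants against 909 in control plants (b 1.39 ± 0.21). AUR62018562-RA had 1641 in HRS plants against 471 in control plants (b 1.25 ± 0.20) and 2044 in HS plants against 494 in control plants (b 1.42 ± 0.21). On day 11 neither was called in HRS, HS or HR, with b between -0.12 and 0.25.

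Both members of J8 rose on day 1. AUR62025872-RA was at 98.0 in HRS plants against 37.0 in control plants (b 0.97 ± 0.21) and at 133 in HS plants against 38.8 in control plants (b 1.23 ± 0.20). AUR62029843-RA was at 31.1 in HRS plants against 7.54 in control plants and at 64.0 in HS plants against 7.9 in control plants (b 2.04 ± 0.40), so that its fold rests on few estimated counts. On day 11 the first was called in HRS (b 0.82 ± 0.19) and not in HS (b 0.21 ± 0.20).

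The 3 members of J11 did not move together. AUR62035012-RA was called higher on day 1, with 427 in HRS plants against 137 in control plants (b 1.13 ± 0.38) and 600.5 in HS plants against 144 in control plants (b 1.43 ± 0.39). On day 11 in HS it was called lower, with 468 in HS plants against 937 in control plants (b -0.69 ± 0.23), a call that limma (adjusted p = 0.071) and total scaling (b -0.45) did not keep. On that day in HS 12 of 13 leaf marker transcripts were also called lower. AUR62041900-RA was called higher in HS on day 1 (b 1.73 ± 0.69), with plants that varied widely (SD within groups 0.85), and AUR62029470-RA was called only in HS on day 11, lower (b -0.60 ± 0.18). DJC73 repeated the change of sign in AUR62020024-RA, with b of 0.56 ± 0.18 in HRS and 0.67 ± 0.15 in HS on day 1 and of -0.60 ± 0.18 in HS on day 11.

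**Figure D4:**
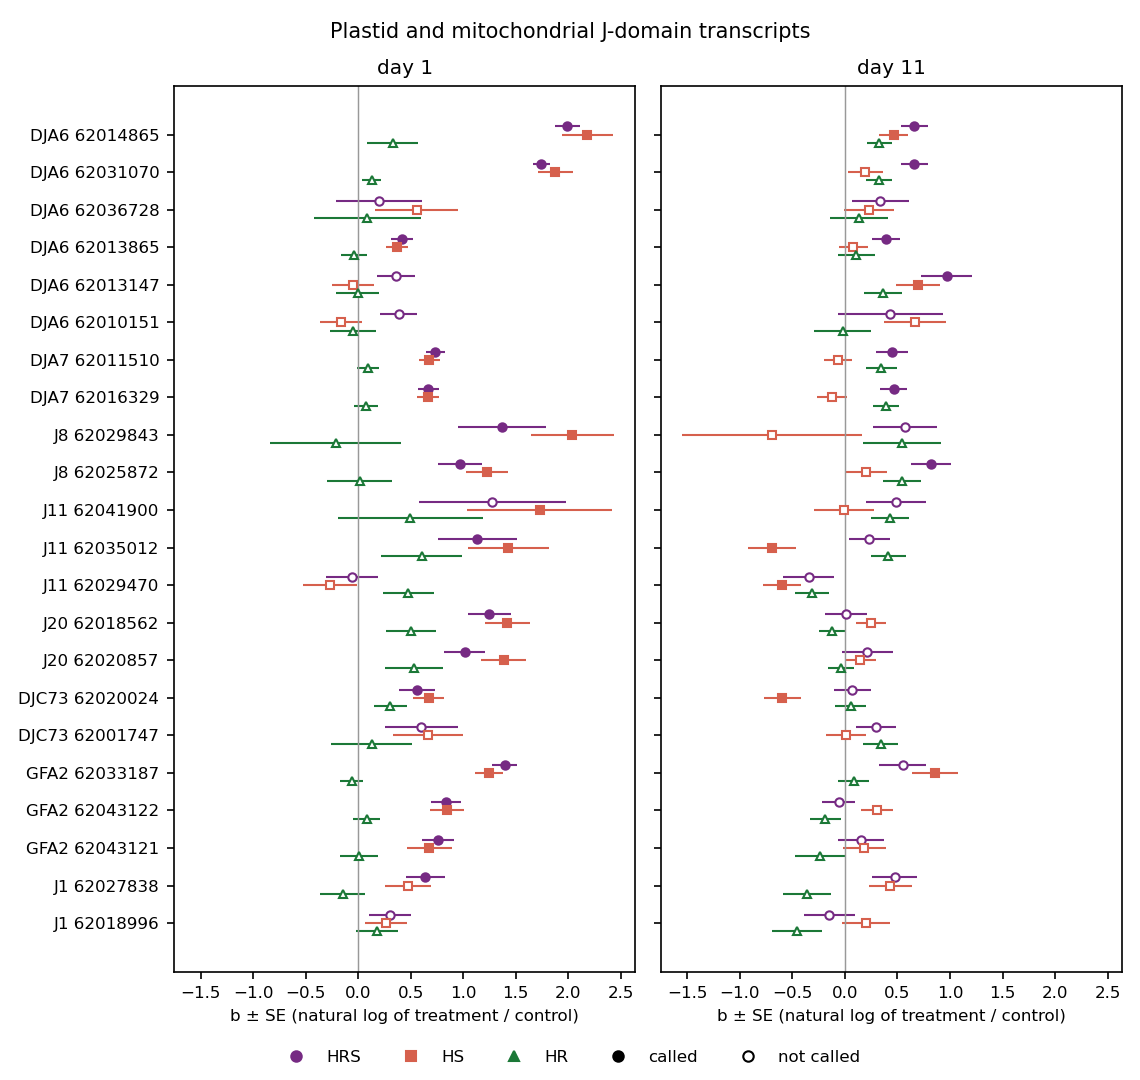
Effect b with its standard error (horizontal axis, natural log scale) for the plastid and mitochondrial members, named by their Arabidopsis match and the number of the transcript, on day 1 (left) and day 11 (right), in HRS (circles), HS (squares) and HR (triangles) against control; filled symbols were called. On day 1 the circles and squares of the uppermost DJA6 rows lie between 1.74 and 2.18 and all triangles are open, and on day 11 the filled squares of J11 and DJC73 lie between -0.69 and -0.60.

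The type B, ARG1 and Sec63 groups were small and gave few calls. Type B proteins, cytosolic partners of HSP70 without the zinc-binding region, had 8 members, of which 4 were tested on day 1. One of the 4, AUR62026471-RA, was called in HRS (b 0.36 ± 0.14), not by limma (adjusted p = 0.057) and not with total scaling. The ARG1 family, named for its role in root gravitropism, had 4 members, of which AUR62002841-RA was called lower in HS on day 1 (b -0.25 ± 0.10, limma adjusted p = 0.095), and the Wald test gave no other call for the family. Limma also called AUR62026565-RA in HS on day 1, higher (b 0.34 ± 0.14, Wald adjusted p = 0.053, limma adjusted p = 0.037). ERDJ2A, a Sec63-type partner of the translocon of the endoplasmic reticulum, had a pair of members, of which AUR62021103-RA was called lower in HS on day 1 (b -0.27 ± 0.10, levels 368 in HS and 484 in control plants). The members of GRV2 (endosomal trafficking), of the homolog of JJJ1 (ribosome maturation in yeast) and of AT5G06410 (HSCB, iron-sulfur clusters) were not called in any comparison.

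The other 87 members tested on day 1 hold the remaining calls, 16 higher and 6 lower in HRS and 21 higher and 7 lower in HS. Both members of the locus AT3G14200 were called higher in all 4 comparisons with heated shoots. AUR62009931-RA had 1775 in HRS plants against 311 in control plants on day 1 (b 1.74 ± 0.30) and 1899.7 in HS plants against 326 in control plants (b 1.76 ± 0.33). On day 11 it was at 627 in HRS plants against 187 in control plants (3.34-fold) and 879.6 in HS plants against 219 in control plants (4.01-fold), and limma called it each time. AUR62001435-RA rose to 2425 in HRS plants against 516 in control plants and to 2011 in HS plants against 541 in control plants on day 1, and its b on day 11 was 0.56 ± 0.14 in HRS and 0.67 ± 0.22 in HS, where limma gave adjusted p of 0.053 and 0.074.

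Further members rose on day 1 in both treatments. Both members of J72 were called, AUR62037099-RA with b of 1.30 ± 0.23 in HRS and 1.36 ± 0.26 in HS and AUR62042360-RA with b of 0.70 ± 0.25 and 0.93 ± 0.25. AUR62007653-RA, a transcript named for its domain of unknown function, rose to 352 in HRS plants against 99.8 in control plants and to 285 in HS plants against 105 in control plants, and on day 11 it was called in HRS (b 0.87 ± 0.16) while its b in HS was 0.03 ± 0.16. AUR62007670-RA (AT1G77020) had b of 1.32 ± 0.53 in HRS and 1.62 ± 0.60 in HS, but at control levels of about 6 estimated counts and without a limma call.

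Auxilin-like proteins use their J domain to recruit HSP70 for the uncoating of clathrin vesicles. The 4 members matching the auxilin-like locus AT4G36520 were all called in HRS and HS on day 1, 3 higher and 1 lower. AUR62007594-RA had b of 1.05 ± 0.15 in HRS and 0.81 ± 0.17 in HS, AUR62004083-RA 0.63 ± 0.17 and 0.56 ± 0.18, and AUR62033850-RA 0.42 ± 0.08 and 0.61 ± 0.09. The lower one, AUR62013822-RA, had 1156 in HRS plants against 1641 in control plants and 1269.7 in HS plants against 1719.8 in control plants.

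Among called members, the lowest effects on day 1 outside J2 and J3 came from several loci. Of J50, AUR62022013-RA fell to 98.8 in HRS plants against 179 in control plants (b -0.59 ± 0.14) and to 102 in HS plants against 188 in control plants (b -0.61 ± 0.14). AUR62032051-RA (AT5G18140) fell with b of -0.43 ± 0.14 in HRS and -0.48 ± 0.11 in HS. Both members of J49 were called lower in each treatment, AUR62040368-RA with b of -0.33 in HRS and -0.45 in HS and AUR62018081-RA with -0.32 and -0.48, although limma called them in HS only. The lowest called b was that of AUR62022497-RA (AT1G65280) in HS, with 3.46 estimated counts in HS plants against 27.4 in control plants (b -1.95 ± 0.55), and in HRS its b was -0.46 ± 0.34. BSD2, which carries the DnaJ-type cysteine-rich domain and serves the assembly of Rubisco, had AUR62011130-RA called lower in HS on day 1 (78.8 in HS plants against 162 in control plants, b -0.72 ± 0.26) and not called in HRS (b 0.39 ± 0.28).

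Heating the roots alone gave few calls among the J-domain transcripts of leaves. In HR on day 1, 2 of 128 members were called, both higher, where 0.567% of all transcripts were called, and in HR on day 11 none of 130 was called, where 0.879% of all transcripts were called. Limma called 0% of all transcripts on either day. At an unadjusted p under 0.05 there were 13 members on day 1 and 17 on day 11 by the Wald test, and 13 and 16 by limma. All transcripts were not counted at that threshold, so that these counts show nothing particular to the members. The called members were AUR62018624-RA (AT2G35540), with 283 in HR plants against 182 in control plants (b 0.44 ± 0.12, limma adjusted p = 0.49), and the auxilin-like AUR62033850-RA, with 1374 in HR plants against 825 in control plants (b 0.51 ± 0.14, limma adjusted p = 0.49). Both were also higher in HRS and HS on that day, and neither was called in HR with total scaling. The strongly rising DJA6 member AUR62014865-RA had a b of 0.33 ± 0.25 and the J2 member AUR62001569-RA one of -0.07 ± 0.09 in HR on day 1. None of the 9 small plastid members was called in HR, but their median b was 0.48 on day 1 (range -0.21 to 0.60) and 0.34 on day 11 (-0.31 to 0.54). The medians over all transcripts were 0.003 and 0.002.

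On day 11 fewer members were called than on day 1. In HRS, 16 of 128 members were called higher and 2 lower, where 12.3% of all transcripts were called, 6.08% higher and 6.2% lower. In HS, 12 of 127 were called higher and 4 lower, where 13.6% of all transcripts were called, 6.09% higher and 7.49% lower. The groups did not overlap for 25 and 27 members, against 19.3% and 21.3% of all transcripts, and limma called 7 members in each treatment, all higher, against 5.55% and 4.95% of all transcripts. The share of members called, 14.1% in HRS and 12.6% in HS, was close to the share among all transcripts, and the share called higher, 12.5% and 9.45%, was above it. With total scaling b in HS on day 11 rises by 0.24 for every transcript, and 53 members were then called, all higher, where 21.6% of all transcripts were called higher and 3.73% lower. In HRS it gave 15 higher and 2 lower, where 5.74% of all transcripts were called higher and 6.51% lower. On this day in HS the leaf markers were also low: 12 of their 13 transcripts were called lower, with a median b of -1.44 and a summed level of 364541 in HS plants against 1264875 in control plants, and none of the 13 was at 0. Their part in the values of the J-domain transcripts was not tested.

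The 6 members called in both treatments on day 11 were all higher, where 1.27% of all transcripts were called higher in both. Beside both members of AT3G14200 and the DJA6 members AUR62014865-RA and AUR62013147-RA, they were 2 of the 3 members tested, of 5 in the table, of J13, a protein known in Arabidopsis from responses to very weak light. AUR62042791-RA had 111 in HRS plants against 48.8 in control plants (b 0.82 ± 0.23) and 168 in HS plants against 57.1 in control plants (b 1.07 ± 0.20). AUR62007515-RA had 223 in HRS plants against 119 in control plants (b 0.63 ± 0.16) and 272 in HS plants against 139 in control plants (b 0.67 ± 0.15), and limma called it in both. The neighbouring AUR62042790-RA was called in HS (b 0.97 ± 0.29). Limma did not keep that call (adjusted p = 0.067) or the HRS call of AUR62042791-RA (adjusted p = 0.07). By the Wald test J13 was therefore a locus with more calls on day 11 than on day 1. On day 1 AUR62042790-RA in HRS was its only call, and the SD within groups of AUR62042791-RA was above 2.

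On day 11, 10 members were called in HS and not in HRS and 12 in HRS and not in HS, which is no test of a difference between the treatments. Of the 4 members of AT5G16650, 2 were called higher in HRS, AUR62002089-RA with b of 0.48 ± 0.17 and AUR62028207-RA with 0.58 ± 0.17, and their b in HS was -0.16 ± 0.18 and 0.38 ± 0.17. Limma kept neither call. The other members, AUR62019022-RA and AUR62027859-RA, had b of -0.09 ± 0.21 and 0.97 ± 0.69 in HRS and were not called. AUR62038512-RA (AT1G71000) was called higher in HS, with 80.8 in HS plants against 28.2 in control plants (b 1.04 ± 0.28, limma adjusted p = 0.06), and its b in HRS was -0.24 ± 0.48. Lower in HS were AUR62004618-RA (AT1G72070; b -0.77 ± 0.25), both J11 members and the DJC73 member given above. None of these 4 lower calls was kept by limma or with total scaling. In HRS the lower calls were the auxilin-like AUR62013822-RA (b -0.37 ± 0.13) and the J49 member AUR62040368-RA (b -0.39 ± 0.14), neither kept by limma.

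HRS and HS plants differ in the root temperature under hot shoots. Their effects were compared by a z test on the difference of the 2 values of b. Its standard error treats the control plants that both share as separate plants and is therefore too large and not too small. The limma test of this difference treats them in the same way and has the same limit. On day 1 none of 128 members differed at an adjusted p under 0.05, where 0.0534% of all transcripts did. At an unadjusted p under 0.05 there were 5 members, and all transcripts were not counted at that threshold. Limma called no transcript at all in this comparison. For the DJA6 member AUR62014865-RA the difference of HRS minus HS was -0.19 (95% interval -0.72 to 0.34), for the J2 member AUR62001569-RA -0.05 (-0.52 to 0.43) and for the J20 member AUR62020857-RA -0.37 (-0.94 to 0.19), so that differences up to these bounds are possible with the plants measured. The smallest p belonged to the BSD2 member AUR62011130-RA (difference 1.11, interval 0.36 to 1.85, z test adjusted p = 0.98) and to AUR62000161-RA, named for tetratricopeptide repeats (difference 0.49, interval 0.16 to 0.82, z test adjusted p = 1).

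On day 11, 3 of 127 members differed between HRS and HS, where 3.87% of all transcripts did, 2.85% higher and 1.02% lower in HRS. The J2 members AUR62001569-RA and AUR62020215-RA were lower in HRS than in HS, with differences of -0.76 ± 0.20 and -0.71 ± 0.20 (HRS minus HS, z test with Benjamini-Hochberg adjustment, adjusted p = 0.013 and 0.019). The third, AUR62007653-RA, was higher in HRS by 0.84 ± 0.22 (adjusted p = 0.012). The J3 member AUR62044239-RA had a difference of -0.66 ± 0.21 (adjusted p = 0.0503). Limma called none of them (adjusted p between 0.12 and 0.15), where it called 0.00668% of all transcripts by its adjusted p. At an unadjusted limma p under 0.05 there were 19 members, and all transcripts were not counted at that threshold. Total scaling gave 10 calls, all lower in HRS, where 4.97% of all transcripts were lower and 0.828% higher, and the call of AUR62007653-RA was lost.

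With sleuth's scaling, the effect of heated shoots was lower on day 11 than on day 1 for a set of J-domain members. The plants of the 2 days were separate, and the difference of day 11 minus day 1 was tested by a z test with the summed squared standard errors. In HRS, 11 of 128 members differed, all with a lower b on day 11, where 6.82% of all transcripts differed, 2.18% higher and 4.64% lower. In HS, 22 of 127 members differed, 17 lower and 5 higher, where 14.5% of all transcripts differed, 5.15% higher and 9.31% lower. Limma called 10 lower in HRS and 4 higher and 15 lower in HS, against 5.07% and 12.5% of all transcripts. In HR none of 128 differed by either test, where 0.0204% of all transcripts did by the z test and 0% by limma. At an unadjusted p under 0.05 there were 5 members by the z test and 7 by limma, and all transcripts were not counted at that threshold.

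Members taken for a high b on day 1 are more likely to have a lower b on day 11 by that choice alone, and the values below are to be read with this. For DJA6, AUR62014865-RA changed by -1.33 ± 0.17 in HRS (adjusted p = 1.2e-11 by the z test) and -1.71 ± 0.28 in HS, and AUR62031070-RA by -1.08 ± 0.15 and -1.68 ± 0.23. For the AT3G14200 member AUR62009931-RA, also high on day 1, the difference was -0.54 ± 0.33 in HRS and -0.37 ± 0.39 in HS, and it was not called (z test, adjusted p = 0.41 and 0.61). For J2 the difference passed the test in HRS and not in HS. AUR62001569-RA moved by -1.13 ± 0.16 and AUR62020215-RA by -1.10 ± 0.21 in HRS, while in HS the values were -0.43 ± 0.27 and -0.54 ± 0.40. The small plastid members contributed 6 of the 17 lower values in HS, among them J20 (AUR62020857-RA, -1.24 ± 0.26), J8 (AUR62025872-RA, -1.02 ± 0.28) and J11 (AUR62035012-RA, -2.12 ± 0.45). In HRS 1 small plastid member was called, the J20 member AUR62018562-RA (-1.24 ± 0.29), and the lowest value of all was that of the J72 member AUR62037099-RA (-1.83 ± 0.37). The 5 members with a higher b on day 11 in HS were the J3 member AUR62004125-RA (0.65 ± 0.17), the BSD2 member AUR62011130-RA (1.23 ± 0.36), the J49 member AUR62018081-RA (0.63 ± 0.19), the J13 member AUR62007515-RA (0.64 ± 0.20) and the auxilin-like AUR62013822-RA (0.51 ± 0.19). In the first 3 and the last of these, b was below 0 on day 1 and between -0.03 and 0.51 on day 11. Total scaling adds 0.42 to every day difference in HS, and 56 members were then called, 46 higher and 10 lower, where 28.9% of all transcripts were called higher and 4.24% lower. In HRS it gave 1 higher and 9 lower, where 4.01% of all transcripts were called higher and 3.21% lower.

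**Figure D5:**
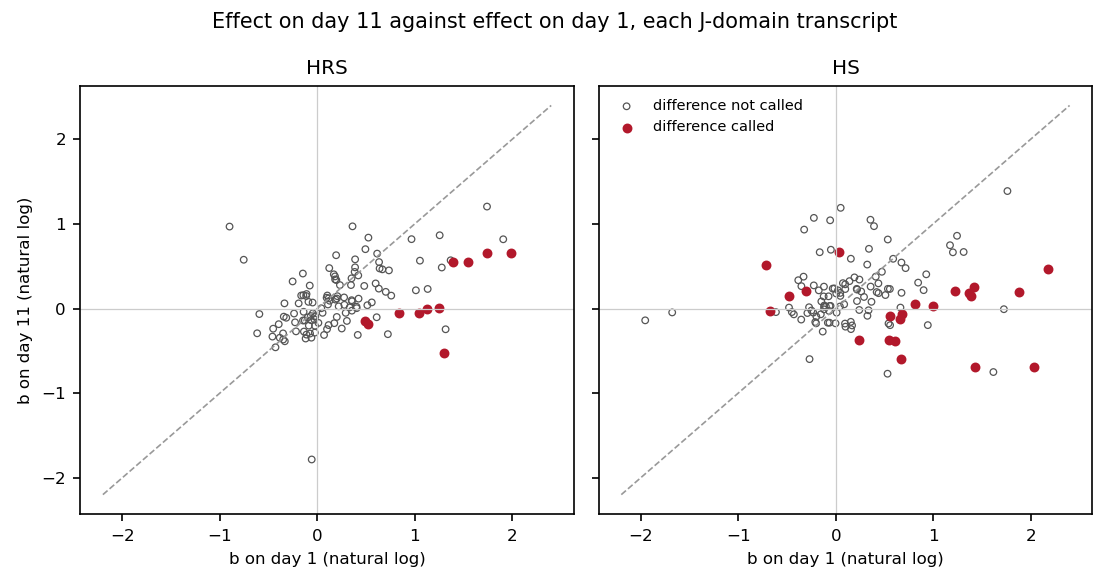
Effect b on day 11 (vertical axis) against effect b on day 1 (horizontal axis), natural log scale, for each J-domain transcript tested on both days, in HRS (left, 128 transcripts) and HS (right, 127); filled red points differed between the days by the z test, and the dashed line marks equal effects. The red points in HRS all lie below the dashed line, and in HS 17 lie below it and 5 above.

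The members of 1 Arabidopsis locus offer a view of how alike related quinoa transcripts were. Of 51 loci with at least 2 members tested, 24 had a member called in HRS on day 1 and 30 in HS. All tested members were called higher at 7 of these loci in HRS and at 8 in HS, and members were called in both directions at 3, which were J2, J3 and the auxilin-like locus in both treatments. The range of b within a locus had a median of 0.32 in HRS and 0.40 in HS and was greatest for DJA6, at 1.80 and 2.34. At the 38 loci with exactly 2 members tested, b had the same sign in both at 25 loci in HRS, 29 in HS and 25 in HR on day 1, and at 23, 28 and 25 on day 11. Pearson's r between the members of these pairs, taken in the order of their identifiers, was 0.68 in HRS and 0.63 in HS on day 1, a description across 38 pairs measured in the same plants. These counts, ranges and correlations were not taken over the other loci with several transcripts, so that they show nothing particular to the members. How the estimated counts of near-identical members share reads is not given in the sources used here.

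J-domain proteins work with HSP70, and with the nucleotide exchange factors that reopen it. Among the HSP70 transcripts of the list, 8 of 11 tested were called higher in HRS on day 1 and 7 of 11 in HS, none lower. They were led by the plastid cpHSC70-2 member AUR62023527-RA (b 5.04 ± 0.27 in HRS and 5.32 ± 0.38 in HS). Of all transcripts tested, 14.1% were called higher in each. The HSP70 transcripts called were those of the plastid and mitochondrion. The cytosolic HSC70-2 member AUR62013416-RA, with a control level of 10.3 in the HRS fit, was not called in any comparison (b -0.32 in HRS and -0.39 in HS on day 1). Neither was the cytosolic HSP70-4 member AUR62043061-RA (b -0.04 and 0.23). Of the 12 transcripts of exchange factors, 11 were called higher in HRS and 9 in HS, and none in HR, with median b of 1.29 and 1.13. Exchange factors of the organelles among them were the plastid CGE1 member AUR62004682-RA (b 1.75 ± 0.10 in HRS and 1.76 ± 0.15 in HS) and the mitochondrial MGE1 member AUR62000291-RA (1.53 ± 0.17 and 1.29 ± 0.29), both called in each. Another MGE1 member, AUR62015879-RA, was not called, with b of 0.53 ± 0.24 in HRS and 0.06 ± 0.26 in HS. Calls were not confined to organelle factors. The FES1A members AUR62042383-RA (b 1.48 ± 0.08 in HRS and 1.57 ± 0.13 in HS) and AUR62043522-RA (1.21 ± 0.10 and 1.26 ± 0.16) were called in each. The HSP70-14 members AUR62011629-RA and AUR62016444-RA were called in HRS only, each with a b of 0.33. On day 11, 4 exchange factor transcripts were called higher in HRS and 6 in HS, and 3 and 5 of the 11 HSP70 transcripts. Of all transcripts tested, 6.08% in HRS and 6.09% in HS were called higher on that day.

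By the wording of the gene names, 13 members are plastid proteins, 5 mitochondrial and the others carry neither word. The members named as chloroplastic were called higher in 8 of 13 cases in HRS on day 1 and 9 of 13 in HS (median b 1.01 and 1.39), and those named as mitochondrial in 4 of 5 and 3 of 5 (median b 0.76 and 0.68). Of the other 110 members tested, 24 were called higher and 10 lower in HRS and 27 higher and 12 lower in HS, with median b of 0.12 and 0.09. All the lower calls of day 1 were thus among members whose names carry neither word. That class is one of wording and not of location. It holds the small plastid DJC73 and also BSD2, which serves Rubisco assembly and whose member AUR62011130-RA was called lower in HS. With total scaling these counts became 8 and 7 of 13 for the plastid and 4 and 2 of 5 for the mitochondrial members, all higher.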

How the data were processed

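The authors trimmed the reads, estimated transcript abundance by pseudoalignment with kallisto to the quinoa transcriptome and fitted each treatment against the control of its day in sleuth 0.30.0. The deposited table gives, for each of the 6 fits of 6 plants, the effect, its standard error and the mean on the natural log scale, the authors' p-value and q-value, and the variance components of the fit (deposited in squared natural log units). It holds 69 columns, of which 0 give values of single plants, so that no plant could be left out in turn, and the read depth of each plant was not used here. The standard error of a single effect rests on 3 plants per group and 4 residual degrees of freedom. It does not include the shift of b under another scaling. All p-values and adjusted p printed were recomputed from the effects and standard errors by the Wald test of sleuth with Benjamini-Hochberg adjustment over all transcripts, threshold 0.05. They match the deposited p-value and q-value columns, whose own values were not printed.

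Levels were computed as the exponential of the mean plus or minus 0.5 of the effect, less the offset of 0.5 estimated counts that sleuth adds. Limma 3.58.1 in R 4.3.3 moderated the residual variances (4 degrees of freedom), and a z test served for differences between effects, its p-values adjusted likewise. Limma tested these differences too, from the mean of the residual variances of both fits. The remaining steps ran in Python 3.11.15, with code tested on simulated data. Alternatives were total scaling, median centring, other thresholds, a minimum effect of 2-fold, a t distribution, no variance shrinkage, transcripts of low abundance left out, 1 transcript per locus, and adjustment over all 6 comparisons.

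The members and the gene lists were chosen with earlier results of these data known. Genes were named by rule: members called with 1 sign in all 4 comparisons with heated shoots, all J2 and J3 members, the 6 highest and 4 lowest called in each of these comparisons, every member called in HR, the 2 smallest p-values of each test of a difference, and examples from the lists. The members of AT5G16650 and the members that complete a count were named after their values were seen. Groups came from the sample descriptions. The leaf, flower and root marker lists served to check the tissue, and the leaf markers were also set beside the HS values of day 11.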

Additional observations from a re-analysis of the deposited data

Results flagged for a closer look

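Among the members named by rule, the effect of heated shoots differed between the days, by the z test (Benjamini-Hochberg adjusted), in 7 cases in HRS and 12 in HS. All values are differences of b, day 11 minus day 1, on the natural log scale. In HRS they were -0.99 for the AT3G14200 member AUR62001435-RA, -1.13 and -1.1 for the J2 members AUR62001569-RA and AUR62020215-RA, -1.33 and -1.08 for the DJA6 members AUR62014865-RA and AUR62031070-RA, -0.64 for AUR62018624-RA (AT2G35540) and -0.84 for the GFA2 member AUR62033187-RA. In HS the DJA6 members AUR62014865-RA and AUR62031070-RA differed by -1.71 and -1.68, the J8 members AUR62029843-RA and AUR62025872-RA by -2.73 and -1.02, the J11 member AUR62035012-RA by -2.12, the DJC73 member AUR62020024-RA by -1.26, AUR62007653-RA by -0.97, AUR62018624-RA by -0.91 and the auxilin-like AUR62033850-RA by -0.99. Higher on day 11 in HS were the BSD2 member AUR62011130-RA, by 1.23, the J3 member AUR62004125-RA, by 0.65, and the auxilin-like AUR62013822-RA, by 0.51. The control plants of the 2 days were separate plants. Limma did not call the HRS value of AUR62033187-RA and the HS value of AUR62013822-RA, and total scaling did not call the HRS value of AUR62033187-RA and the HS value of AUR62025872-RA.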

How the results depend on the processing

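No paired analysis was possible because the columns carry effects of whole groups and no values of numbered plants, and for the same reason no replicate could be left out in turn. No called result changed direction under any alternative run. Counts below are of members called, of 46, 51, 2, 18, 16 and 0 in HRS, HS and HR on day 1 and HRS, HS and HR on day 11, and of 0 and 3 for HRS minus HS on days 1 and 11 and 11, 22 and 0 for day 11 minus day 1 in HRS, HS and HR. The strictest alternative, a t distribution with 4 degrees of freedom without moderation, called 4 in HRS and 0 in HS and HR on day 1 and 0 in HRS and HS on day 11. A minimum effect of 2-fold left 21 in HRS, 24 in HS and 0 in HR on day 1 and 5 in HRS and 10 in HS on day 11. With 1 transcript per locus 22, 24 and 1 were called in HRS, HS and HR on day 1 and 9 and 7 in HRS and HS on day 11. At an adjusted p of 0.01 the counts were 0 in HR on day 1 and 11 in HRS and 8 in HS on day 11, and at 0.1 they were 1 in HR on day 11 and 6 for HRS minus HS on day 11. Without variance shrinkage 6 were called in HR on day 1, 33 each in HRS and HS and 10 in HR on day 11, 12 for HRS minus HS on day 11, and 19, 38 and 1 for day 11 minus day 1 in HRS, HS and HR. Limma called 0 in HR on day 1, 7 each in HRS and HS on day 11, 0 for HRS minus HS on day 11 and 0 type B members in HRS on day 1. Total scaling called 0 in HR on day 1, 53 in HS on day 11, 10 for HRS minus HS on day 11 and 56 for day 11 minus day 1 in HS. On day 1 it called 0 and 2 type B, 2 and 2 ARG1 and 1 and 2 Sec63 members in HRS and HS. Adjustment over all 6 comparisons gave 4 in HR on day 1 and 3 on day 11, and leaving out the 25% of transcripts of lowest abundance gave 6 for HRS minus HS on day 11. Chosen after seeing the data, leaving out the names with a cysteine-rich or unknown domain gave 45 in HRS and 49 in HS on day 1. Apart from total scaling, whose construction shifts all effects of a comparison together, and from the smaller sets tested, the cause of these changes was not tested. Except for limma and total scaling, all transcripts were not counted under these alternatives, so that those counts show nothing particular to the members. Precision is limited by 3 plants a group: an effect near the size of its standard error was not detectable. Effects well above their standard error could also miss the Wald call, as for AUR62026565-RA in HS on day 1.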
